A study of Arabidopsis thaliana with 9 samples.

Results

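AT2G04770 is a locus on chromosome 2 of Arabidopsis thaliana, listed as a CACTA-type transposase gene. It is 1 of 13286 loci named singly by a probe set of the Affymetrix ATH1 array, and its probe set was found by the locus name in the platform annotation. The locus was picked for description with earlier results of these data known. Its probe set, which ends in _x_at, was 1 of 22746 that are no controls. A probe set is a group of short probes that together report 1 transcript, and this was the only probe set whose annotation named the locus. RefSeq's table of genes (assembly TAIR10.1) gives it the type pseudogene, with no symbol beyond the locus name, so the transposase label comes from outside the tables used here. The array names no genome build, and no coordinates are given.

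Whole plants were measured in 3 groups of 3 arrays: the wild-type control (WT-control) and the mutant lines line774 and line1135, which the series title calls epigenetic mutants. The plants were 17 days old, at growth stage 1.04, raised on plates at 21 °C in a cycle of 16 h light and 8 h dark. Which gene each line lacks is not stated in these labels, and a T-DNA knockout is marked on all 9 samples, the control among them. Each line has 1 source name in the labels, and whether the 3 samples of a group were grown separately is not stated, so the spread behind each p-value may be technical.

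CACTA elements are DNA transposons that move by cutting and pasting, and they take their name from the short motif at their ends. The transposase is the enzyme that binds those ends and excises the element. In Arabidopsis most copies lie in heterochromatin and are kept silent by DNA methylation and by chromatin remodelling, and loss of these systems is known to let CACTA copies be transcribed and move. A transposase transcript in a whole seedling is therefore commonly used to read the state of transposon silencing.

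The ending _x_at of the probe set means that some of its probes also match other sequences, here possibly related copies of the element. The signal is accordingly that of AT2G04770 together with any copies its probes read, and their parts cannot be told apart. The deposited values are linear intensity scaled to a common mean on each array. Background was taken as the highest signal among 27 probe sets for Bacillus genes, which no plant RNA should bind. This background lay between 5.36 and 13.4 over the 9 arrays. Arrays of the same group had rank correlations of 0.964 to 0.975. The leaf marker RCA, rubisco activase, had a mean signal of 5684 in the control, with 5900 for line774 and 6185 for line1135. The root marker PYK10, a beta-glucosidase of endoplasmic reticulum bodies, had 3296, 2842 and 3049, and its groups overlapped as those of RCA did. EXPA7, a root hair expansin, gave 4.07, 10.9 and 11.2 in the control, 15.1, 20.2 and 19.9 in line774, and 8.52, 16.6 and 9.90 in line1135. It lay near background, with line774 above the control on all 3 arrays (limma adjusted p = 0.0808), and its part in the results was not tested. The other 11 of 14 listed tissue markers, among them all for flower, pollen and seed, were not named singly by a probe set. They are not analysed here, and probe sets naming several genes were not searched.

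In the control, the AT2G04770 probe set gave signals of 1.00, 1.15 and 4.91 in replicates 1, 2 and 3. The background on the same arrays was 6.07, 6.63 and 5.36, so the probe set was not above background on any control array. Of the 27 Bacillus probe sets, 12, 10 and 1 were brighter than it on these arrays. The third control array came nearest to the background, and no order among values this low can be read.

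In line774 the signals were 785, 835 and 766, which was 92.5, 77.7 and 70.5 times the background of the same arrays. All 3 arrays lay above all 3 controls, and the spread among them was small, with a coefficient of variation of 4.45%. The group mean was 795 ± 35.4 against 2.35 ± 2.21 in the control (SD, n = 3). Because the control was not above background, the fold is a bound: the signal was at least 133-fold higher in line774, taking the mean log2 signal of the line against the mean log2 background of the control arrays. On log2(signal + 16), the scale of the test, AT2G04770 rose by 5.47 ± 0.13 (SE, limma adjusted p = 6.14e-10). Adding 16 before the logarithm damps noise at low signal and understates a change that starts from background. Of all 22746 probe sets, 1.02% were called higher in line774, a call needing both 2-fold or more and an adjusted p below 0.05.

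In line1135 the signals were 1058, 1025 and 1478, or 140.4, 132 and 110.1 times the background of the same arrays. Again all arrays of the line lay above all controls. The third array was 1.42 times the mean of the other two, and the coefficient of variation was 21.3%. The group mean was 1187 ± 252 (SD, n = 3). On the same bound the signal was at least 195-fold higher than in the control. On the log2(signal + 16) scale the locus rose by 6.02 ± 0.13 (SE, limma adjusted p = 2.33e-10), where 1.06% of all probe sets were called higher. Both lines were compared with the same 3 control arrays. In each comparison AT2G04770 had the 11th largest increase of the 22746 probe sets, and the 10 larger ones all belonged to probe sets of pseudogene-type loci.

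**Figure D1:**
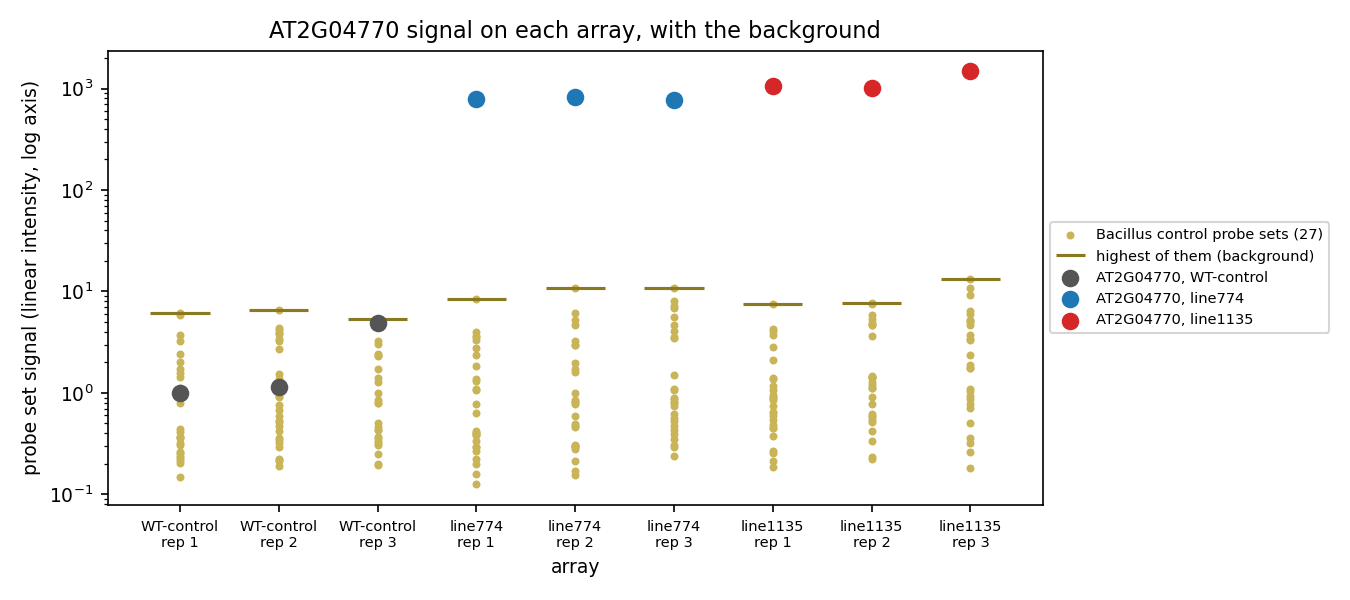
Signal of the AT2G04770 probe set (large points, log axis) on each of the 9 arrays, with the 27 Bacillus control probe sets (small points) and the highest of them as a bar. The 3 control arrays lie between 1.00 and 4.91, under the bar, and the 6 arrays of the mutant lines between 766 and 1478.

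The design also asks whether the lines differ from each other. The 3 signals of line1135 were all above the 3 of line774, with the nearest values at 1025 and 835. The signal was 1.47 times as high in line1135 as a ratio of geometric means. The difference on the log2(signal + 16) scale was 0.55 ± 0.13 (SE), with a 95% interval of 0.25 to 0.84. The limma adjusted p of 0.0699 missed the threshold of 0.05. Of all probe sets, 1.13% were higher in line1135 than in line774 at that threshold, and 0.435% were called, with 2-fold or more. The result lay close to the threshold and depended on the processing. The adjusted p was 0.0297 and 0.0341 when dim probe sets were left out, and 0.462 at an offset of 1. At that offset the difference was still 0.56, while the SE was 0.32. The SE comes from a spread shared by all 9 arrays, the control arrays at background included. Without the third array of line1135 the difference was 0.38 (adjusted p = 0.164). On that array the background was also the highest of all 9, at 13.4, and its part in the result was not tested. In the order of levels, both lines stood above the control, and line774 and line1135, next to each other, were not separated by the test.

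An exact two-sided permutation test over the arrays for this probe set alone gave p = 0.1 in each of the 3 comparisons. This is the smallest value that 3 against 3 arrays allow.

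The difference between the lines can be set beside that of other pseudogene-type loci. The RefSeq table gives a pseudogene type to the single annotated locus of 989 probe sets. Of these, 119 were above background on all 6 arrays of the lines. Their line1135 minus line774 differences ran from -0.76 to 2.67 on the log2(signal + 16) scale, with a median of 0.48 and quartiles of 0.10 and 1.58. AT2G04770, at 0.55, stood near the middle, with 51 probe sets above it and 67 below. Requiring signal in both lines leaves out loci bright in line1135 alone, such as AT4G08680. Over all 989 the difference of AT2G04770 ranked 128th from the top, and over all 22746 probe sets 319th. Of the 119, 98 had a positive difference. Of the 119, 39 had a difference of at least 1, that is 2-fold on this scale, and AT2G04770 was not among them. The same share was not counted over all 22746 probe sets. Of those, 0.435% were called higher in line1135 than in line774, which also needs an adjusted p below 0.05. Over all 22746 probe sets the median difference was 0.00.

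**Figure D2:**
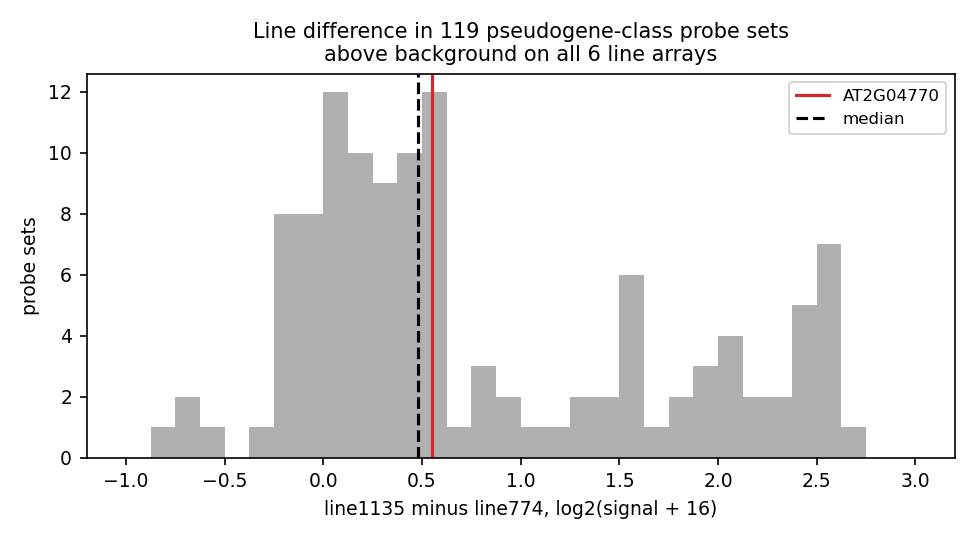
Histogram of the line1135 minus line774 difference on log2(signal + 16) for the 119 pseudogene-type probe sets above background on all 6 arrays of the lines. AT2G04770 (solid line, 0.55) lies beside the median of 0.48 (dashed line), and many probe sets lie to the right, up to 2.67.

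Among pseudogene-type loci, probe sets that share probes with other sequences were often higher in the lines. Of the 78 pseudogene-type probe sets ending in _x_at, as that of AT2G04770 does, 39 (50.0%) were called higher in line774 and 53 (67.9%) in line1135, and 0 were called lower. Their median change was 0.95 in line774 and 2.30 in line1135 on the log2(signal + 16) scale, against 0.02 and 0.02 over all probe sets. Of the 113 pseudogene-type probe sets ending in _s_at, 21 (18.6%) and 34 (30.1%) were called higher. Of the 798 pseudogene-type probe sets with the plain ending _at, which are not marked as shared, 27 (3.38%) and 61 (7.64%) were called higher. Of all 126 tested probe sets ending in _x_at, whatever their type, 41 (32.5%) and 56 (44.4%) were called higher. These counts include the 39 and 53 of pseudogene type. Over all probe sets the shares were 1.02% and 1.06%. Since related copies can share an _x_at signal, these 39 and 53 probe sets need not stand for as many separate loci. A probe set with a control signal at background, as that of AT2G04770, could also not have been called lower.

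The pattern of AT2G04770 over the 9 arrays was shared closely by other loci. Likeness was measured as Pearson's r with AT2G04770 on log2(signal + 16) over the 9 arrays, among 3518 probe sets with 1 annotated gene and a median signal of at least 100 in some group. The 8 most alike were AT2G10640 (r = 0.998), AT1G43840 (0.998), AT2G12240 (0.998), AT3G30396 (0.997), AT5G27180 (0.997), AT3G47320 (0.997), AT2G12050 (0.996) and AT3G31955 (0.996). These r values are set almost wholly by the step between control and lines, which AT2G04770 and the 8 loci share, and they serve as a description. Ranked over the 6 arrays of the lines alone, 0 of the 8 stayed among the 8 most alike. All 8 loci have a pseudogene type in the RefSeq table, and 3 of them are on chromosome 2. The gene table used here names no element or function for any of the 8.

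Of the 8, 3 were read by plain _at probe sets. AT1G43840 gave signals of 0.916, 3.38 and 0.445 in the control, 528, 449 and 392 in line774, and 593, 552 and 728 in line1135. AT5G27180 gave 1.92, 0.206 and 8.83, then 305, 319 and 302, then 462, 405 and 416. AT3G47320 gave 6.03, 4.72 and 0.312, then 1077, 976 and 896, then 1405, 1209 and 1425. In each of these 3 loci, as in AT2G04770, the controls lay at or near background and the groups did not overlap. That they show this step follows from how they were chosen, and plain _at probe sets are not marked as shared between sequences. The other 5 were read by _x_at probe sets (AT2G10640, AT2G12240 and AT3G30396) or by _s_at probe sets (AT2G12050 and AT3G31955), which also match more than 1 transcript. Over the 8 loci no control signal exceeded 9.28, and no signal in a line was under 139.8.

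**Figure D3:**
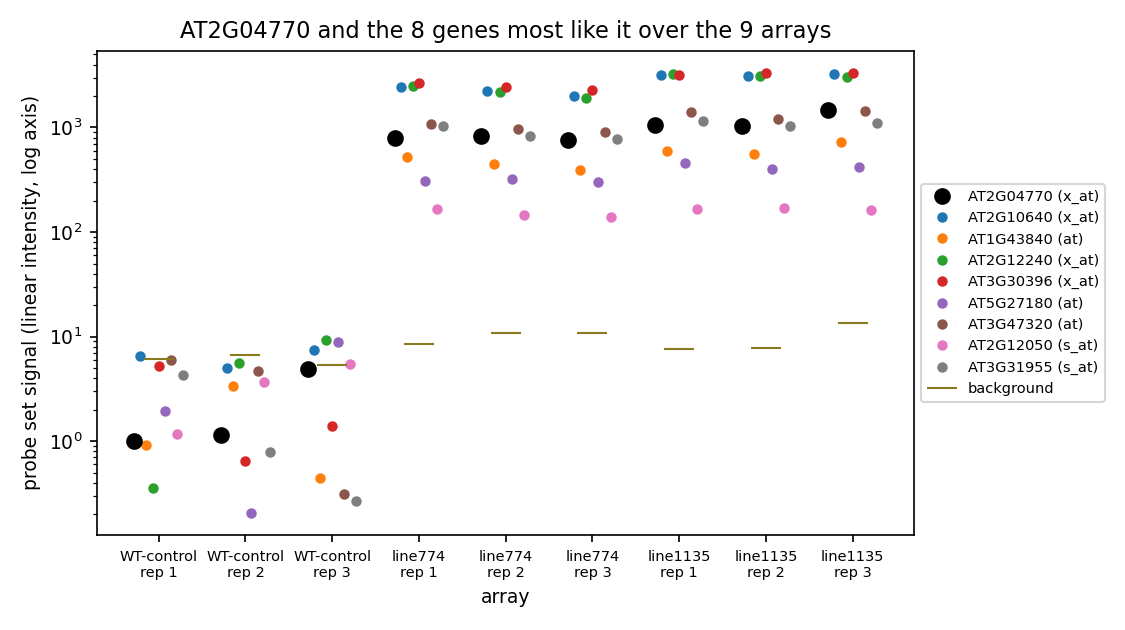
Signal (log axis) of AT2G04770 (large black points) and of the 8 loci with the highest Pearson r to it on each array, with the background as bars. All 9 loci lie at or near the background in the 3 control arrays and at 139.8 or more in the 6 arrays of the lines; heights of different probe sets are not comparable.

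All 8 had a positive difference between line1135 and line774, with signal ratios of 1.10 to 1.42, against 1.47 for AT2G04770. In 6 of the 8 the arrays of the lines did not overlap. The share without overlap was not counted over all probe sets, so this count is no result about the 8. AT2G10640 passed the test, with a difference of 0.51 ± 0.08 on the log2(signal + 16) scale (SE, limma adjusted p = 0.00752), and the other 7 did not. Its estimate was no larger than that of AT2G04770, and its coefficient of variation was 2.45% in line1135 and 9.21% in line774. In the control this coefficient was 18.8% for AT2G10640 and 94.1% for AT2G04770. The SE rests on a spread pooled over all 9 arrays, so it also holds the spread of the control arrays. Over the 8 loci this coefficient ran from 1.61% to 14.7% in line1135, under the 21.3% of AT2G04770, and from 2.95% to 15.3% in line774, where AT2G04770 had 4.45%. The third array of line1135 was 0.959 to 1.27 times the mean of the other two in these 8, so the 1.42 of AT2G04770 was not matched by any of them.

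With these 8 included, 22 other probe sets of all 22746 reached an r of at least 0.99, and 20 of the 22 were of pseudogene-type loci. Of the 22, 14 ended in _x_at or _s_at and 8 in plain _at. Among all 22746 probe sets, 989 were of pseudogene type and 126 ended in _x_at, while those ending in _s_at were not counted.

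The loci beside AT2G04770 on chromosome 2 were taken in RefSeq gene order. A locus counted as measured where it was the only gene annotated to a probe set, so some gene positions were passed over. Of the 5 nearest measured loci on each side, 0 of 10 were called higher in line774 and 0 of 10 in line1135, where 1.02% and 1.06% of all probe sets were, so no call among 10 is no result about them as a group. The nearest on 1 side, the adjacent pseudogene AT2G04760, gave signals between 0.227 and 1.28 over all 9 arrays and was at or below background on each. The pseudogenes AT2G04720 and AT2G04730 and the protein-coding AT2G04830 were also at or below background on all 9 arrays. AT2G04740, protein coding, had signals between 37.4 and 56.6 with overlapping groups. AT2G04750 stayed near background, with a highest signal of 13.6.

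Of the same 10 loci, 2 were called lower in line774 and 0 in line1135, where 0.98% and 1.22% of all probe sets were. The 2 called lower lie on the other side of AT2G04770. AT2G04795, a protein-coding gene without a given name, gave signals of 415, 468 and 373 in the control, 112, 139 and 188 in line774, and 210, 217 and 227 in line1135. It fell by 1.44 on the log2(signal + 16) scale in line774 (SE 0.15, limma adjusted p = 0.000132). In line1135 its change was -0.89 ± 0.15 (SE, limma adjusted p = 0.00241), past the p threshold at less than 2-fold. The pseudogene AT2G04820 gave 19.7, 21.9 and 41.3 in the control, 4.89, 8.70 and 1.78 in line774, and 11.4, 11.4 and 12.8 in line1135. Its fall in line774, of 1.03 on the same scale (limma adjusted p = 0.0050), was at least 2.62-fold, and the 2-fold call was lost without the third array of the control (-0.81) or of line774 (-0.91), and at an offset of 64 (-0.40). Its change of -0.61 in line1135 had an adjusted p of 0.056. AT2G04800 had a change of -0.999 in line1135 (limma adjusted p = 0.0272) and -0.60 in line774 (adjusted p = 0.176). With quantile normalization (-1.01) or median scaling (-1.01) it passed 2-fold on the log2(signal + 16) scale in line1135, and was called. The same held without the third array of that line (-1.27). Its adjusted p was 0.0556 at an offset of 1 and reached 0.0907 without the first control array; it also missed 0.05 without any other single array of the control, and without the first or the second of line1135. AT2G04790, the nearest measured locus on this side, had changes of -0.54 and -0.53 with adjusted p of 0.0572 and 0.0598.

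**Figure D4:**
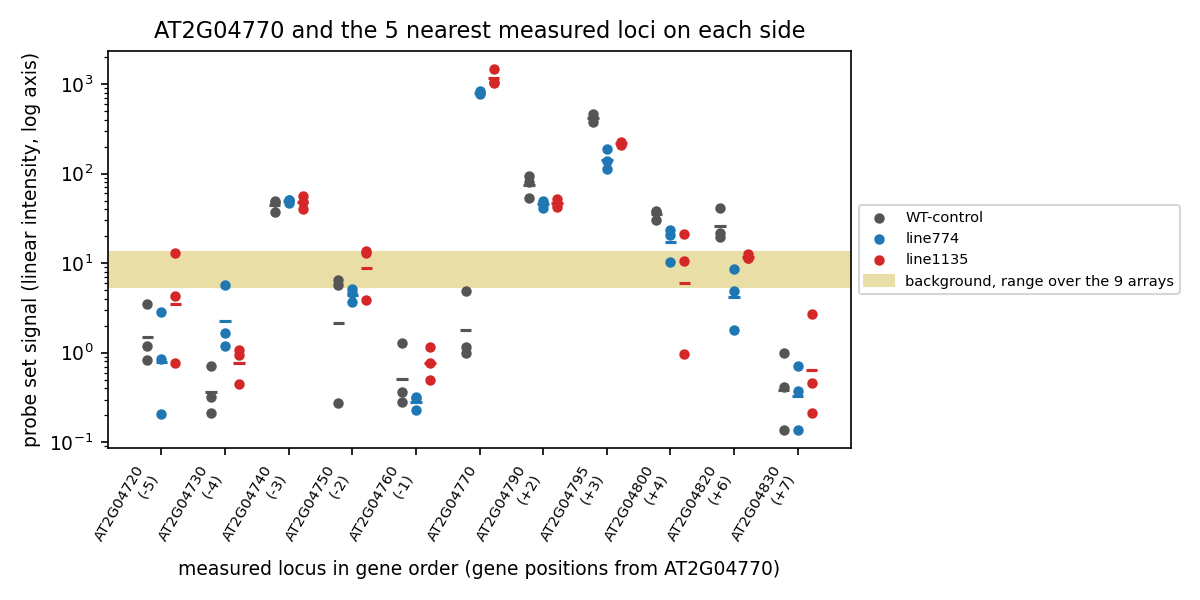
Signal (log axis) of AT2G04770 and the 5 nearest measured loci on each side, in gene order, with 3 arrays per group as points, geometric means as bars and the range of the background shaded. Of these 11 loci, AT2G04770 alone is called higher in the lines, and AT2G04720, AT2G04730, AT2G04760 and AT2G04830 stay at or below background. AT2G04790, AT2G04795, AT2G04800 and AT2G04820 lie under the control in both lines. Of these, AT2G04795 alone is lower at an adjusted p below the threshold in both.

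A wider window, chosen after the values were seen, took the loci within 50 gene positions on either side. It held 53 probe sets, 19 of them of pseudogene type. In line774, 1 of the 53 was called higher and 2 lower, and in line1135, 2 were called higher and 0 lower. These are 1.89% higher and 3.77% lower in line774 and 3.77% higher in line1135, each from 1 or 2 calls, where 1.02%, 0.98% and 1.06% of all probe sets were called. The loci called higher were AT2G04980 in both lines and AT2G04970 in line1135, adjacent pseudogenes read by _x_at probe sets. AT2G04980 gave 7.34, 9.06 and 3.64 in the control, 68.4, 78.2 and 45.2 in line774, and 352, 330 and 322 in line1135. Its difference between the lines, 2.16 ± 0.16 on the log2(signal + 16) scale (SE, limma adjusted p = 3.1e-05), was called, unlike that of AT2G04770. AT2G04970 went from 4.72, 0.286 and 8.06 in the control to 13.3, 11.5 and 8.76 in line774 and 63.6, 61.7 and 76.0 in line1135. AT2G04970 and AT2G04980 were thus higher mainly in line1135, where AT2G04770 was bright in both lines and its adjacent pseudogene AT2G04760 in neither.

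Of 8 listed loci that are used to read released silencing, 5 were measured. QQS, a gene without relatives in other species that acts on starch content, gave 133 to 163 in the control, 1223 to 1379 in line774 and 1241 to 1327 in line1135, and rose in both lines. Its difference between the lines was -0.01 ± 0.08 on the log2(signal + 16) scale (95% interval -0.19 to 0.17). AT4G08680 gave at most 3.45 in the control, 0.982, 0.464 and 2.26 in line774, and 107, 110 and 89.3 in line1135, at least 16.9-fold above the control. AT2G12210 was at or below background on all 9 arrays, with a highest signal of 0.979, and so was AT4G03650, with a highest of 3.62. AT1G37110 gave 3.14, 3.14 and 5.63 in the control, 6.09, 3.95 and 5.66 in line774, and 11.1, 10.6 and 14.8 in line1135. Its change in line1135 was 0.49 ± 0.11 on the log2(signal + 16) scale (SE, limma adjusted p = 0.0131), less than 2-fold on that scale. The ratio of geometric mean signals was 3.15, from a control near background. Thus 1 of the 5 was called higher in line774 and 2 of 5 in line1135, beside 1.02% and 1.06% of all probe sets. At an offset of 1, AT1G37110 was called as well in line1135 (1.43, limma adjusted p = 0.0433). AT2G04770 had a step like that of QQS, present in both lines, but from a control at background.

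Of 33 listed genes of the silencing machinery, 3 were named singly by a probe set. Probe sets naming several genes were not searched. DME, a DNA demethylase that removes methylated cytosine, was read by 3 probe sets, whose changes ran from -0.24 to 0.07 over both lines, with a lowest limma adjusted p of 0.495. The brightest of them gave 61.3, 65.6 and 65.3 in the control, 75.1, 77.1 and 54.0 in line774, and 65.5, 80.0 and 60.3 in line1135. AT1G06760 had changes of -0.06 ± 0.08 and -0.17 ± 0.08 (SE), and AT2G30620 of -0.04 ± 0.07 and 0.03 ± 0.07. None of the 3 passed the test in either line, and the other 30 are not analysed here. In whole plants, more cells with the AT2G04770 transcript and more of it in each cell cannot be told apart.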

How the data were processed

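RNA of 9 samples had been labelled with biotin and hybridised to 1 ATH1 array each. The deposited values are intensity per probe set, made by the authors with MAS5 and GCOS (named in the submitters' processing notes, without versions). The 2% trimmed mean of each deposited column was near 100. The annotation of the array platform gave the gene names (13513 with 1 gene, 13436 of them matched to a locus of the TAIR10.1 RefSeq gene table). A search of these names for CACTA, En/Spm or transposase matched 0 of the 13513 probe sets with 1 gene. No sequence of the locus or its probes was used here.

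The 64 control probe sets were left out and the other 22746 tested without a filter. Values were taken as log2(signal + 16), and limma 3.58.1 (R 4.3.3) fitted a mean for each group over the 9 arrays together, using lmFit and then eBayes with an intensity trend. This leaves 6 residual degrees of freedom. Benjamini-Hochberg adjustment ran over the whole table. The fit was tested on simulated data. Named genes were AT2G04770, the 8 most alike, 5 measured neighbours per side and the listed loci. The members and lists were chosen with earlier results of these data known. Alternatives were other offsets, filters, scalings and fits, and leaving out each array. Figures used matplotlib 3.10.9.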

Additional observations from a re-analysis of the deposited data

Results flagged for a closer look

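Among the named loci, 3 were called different between the lines by the direct test on log2(signal + 16). Of all 22746 probe sets, 0.435% were called higher in line1135 than in line774 and 0.167% lower. AT2G04970 and AT2G04980 had been added to the named loci after the values were seen, so their calls are a description. AT4G08680 was higher in line1135 than in line774 by 2.77 ± 0.13 (SE, limma adjusted p = 2.91e-06), with all 3 arrays of line774 at or below background. AT2G04980 was higher by 2.16 ± 0.16 and AT2G04970 by 1.61 ± 0.16 (SE, limma adjusted p = 0.000363). For these the lines did not overlap. The cause was not tested.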

How the results depend on the processing

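The increase of AT2G04770 passed the test under all 18 alternatives in each line, with changes of 3.69 to 8.08 in line774 and 4.22 to 8.64 in line1135, the extremes coming from offsets of 64 and 1. Without 1 array at a time it lay between 5.42 and 5.57 in line774 and between 5.86 and 6.12 in line1135. Its difference between the lines passed the adjusted p threshold under 4 alternatives. They were an offset of 64 (0.52, adjusted p = 0.0478), leaving out the dimmest 25% or 50% of probe sets (0.55 each, adjusted p = 0.0297 and 0.0341) and the replicate block (0.55 ± 0.11, adjusted p = 0.0433). Without 1 array at a time it lay between 0.38 and 0.64 with adjusted p up to 0.165. Deviations of same-numbered arrays from their group means correlated at 0.03 to 0.09. Differently numbered arrays were not compared in this way, so whether the replicate numbers mark a shared batch cannot be told. The counts of probe sets called higher were 481 at an offset of 1 and 102 at an offset of 64 in line774 (233 as reported). In line1135 (242 as reported) they were 501, 111 and, without the dimmest 50%, 135. Between the lines (99 as reported) they were 48 at an offset of 64 and 54 without the dimmest 50%. Of the 8 loci most alike, 4 stayed among the 8 at an offset of 1, 3 by Euclidean distance and 7 after quantile normalization. The call of AT2G04970 between the lines was lost at offsets of 1 (adjusted p = 0.0517) and 64 (0.80, under 2-fold), and at 64 also its call in line1135 against the control (0.94), that of AT2G04980 in line774 (0.85) and that of AT2G04820 in line774 (-0.40). The causes were not tested. The number of arrays and the background limit what could be seen, and a locus at background in the control could not be called lower.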
